A study of Mus musculus with 12 samples.

Results

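Long noncoding RNAs (lncRNAs) of male mouse liver were compared between TCPOBOP and PCN in strand-specific libraries of whole-liver RNA. The lncRNAs described are the 251, of 15558 in the table, whose mean over the 4 libraries was at least 1 RPKM (reads per kilobase of counted length and per M reads, where M is 1000000). The mean over both agonists chose them, but a lncRNA that was high after 1 agonist could pass through that agonist alone: 25 of the 251 had a mean below 1 RPKM after PCN and 14 after TCPOBOP. Just inside the threshold were ncRNA_inter_chr6_4970, ncRNA_inter_chr9_8301 and ncRNA_as_chr11_9766, with means of 1.005, 1.005 and 1.01 RPKM. Just outside were ncRNA_as_chr11_9940, ncRNA_inter_chr10_9394 and ncRNA_inter_chr16_13226, with 0.993, 0.993 and 0.997 RPKM.

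All mice of the 4 libraries compared were CD-1 males, an outbred stock, aged 8 weeks, and each had been injected with 1 agonist. The 4 groups were TCPOBOP at 3 h, TCPOBOP at 6 h, PCN at 3 h and PCN at 6 h. Livers were taken at 11 AM for the 3 h groups and at 2 PM for the 6 h groups, so time after injection and clock hour cannot be told apart. Each group was 1 library of poly-A selected RNA pooled from 6 livers, so the spread between animals or pools was not measured. Vehicle-treated livers were not analysed here, and every difference below is TCPOBOP against PCN and not a response to either. The 8 unstranded libraries of the series, read for some loci below, were all of 3 h and of mice aged 8 weeks. They were pools of 2 to 6 livers and include nuclear pools of females.

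TCPOBOP is a synthetic agonist of the nuclear receptor CAR (constitutive androstane receptor) in mice, and PCN (pregnenolone carbonitrile) is a synthetic steroid agonist of the rodent nuclear receptor PXR (pregnane X receptor). Both receptors pair with RXR and bind enhancers of genes for drug and steroid metabolism in hepatocytes. Their target sets overlap: Cyp2b10 is the usual marker of CAR activation, Cyp3a11 of PXR activation, and genes of the Cyp2c, carboxylesterase, sulfotransferase, glucuronosyltransferase and glutathione transferase families, and Alas1, respond to one or both. An intergenic lncRNA lies between genes, an antisense lncRNA overlaps a gene on the opposite strand, and an intragenic lncRNA lies within a gene.

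The 4 libraries held 25.2 to 27.8 M reads, of which 0.794% to 0.918% fell in lncRNAs. The 251 lncRNAs took 67.7% to 70.7% of those lncRNA reads. At this depth 3 reads, the number that a count of 0 allows, equal 0.108 to 0.119 RPKM for a counted length of 1 kb. All 4 libraries gave at least 100 reads for 102 of the 251, at least 1 library gave fewer than 10 reads for 27, and at least 1 gave 0 reads for 2. Identifiers come without gene symbols, so liver markers and markers of other cell types could not be read, and fewer cells of a type cannot be told apart from less RNA per cell.

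The 251 comprised 132 intergenic, 69 antisense and 50 intragenic lncRNAs on 20 chromosomes. Their levels were skewed, with a median mean of 1.94 RPKM, 27 lncRNAs at 10 RPKM or more and a highest mean of 708 RPKM. Most of an intragenic span was not counted: the median span was 51607 bases and the median counted length 350 bases. The medians were 2480 and 1735 bases for intergenic and 6924 and 3125 bases for antisense lncRNAs. Of the 251, 35 overlapped another of them. Whether the authors' counting used strand is not given in the sources used here, so reads of an overlapping gene cannot be told from those of an antisense or intragenic lncRNA.

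Most of these lncRNAs were within 2-fold between agonists, and a few were at least 2-fold apart at both times. At both times 77 of the 251 (30.7%) were higher after TCPOBOP and 66 (26.3%) higher after PCN, against 27.1% and 23.8% of the 2270 lncRNAs with at least 0.1 RPKM in 2 of the 4 libraries. The other 108 were not on 1 side at both times, and 3 of the 66 were equal to within 0.0001 log2 units at 1 time. The direction was shared by both times for 57% of the 251 and for 50.9% of the 2270. The difference, TCPOBOP minus PCN on the log2(RPKM + 0.1) scale, had a median of 0.03 at 3 h and 0.02 at 6 h. Over the 2270 the medians were 0.06 and 0.00. Differences on this scale understate the fold of lncRNAs near 0.1 RPKM.

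At 3 h, 14 of the 251 were at least 2-fold higher after TCPOBOP, against a background of 7.09% of the 2270, and 12 were at least 2-fold higher after PCN, against 5.99%. At 6 h the counts were 17, against 7.84%, and 11, against 7.14%. At both times together 8 lncRNAs were at least 2-fold higher after TCPOBOP, where the background is 1.94%, and 2 after PCN, where it is 1.54%. The 8 and the 2 comprised 4 intergenic, 3 antisense and 3 intragenic lncRNAs. Of the 8, 5 had a mean below 1 RPKM after PCN and entered through their TCPOBOP libraries, so the count of 8 against 2 leans on the rule and nothing is read from it. The 5 are ncRNA_inter_chr11_9914, ncRNA_intra_chr19_15014, ncRNA_intra_chr19_15011, ncRNA_inter_chr7_5998 and ncRNA_as_chr7_5912. With a mean of at least 2 RPKM the counts were 3 and 2. Within 2-fold at both times were 210 of the 251 (83.7%), against 78% of the 2270. At least 4-fold, 5 of the 8 were higher after TCPOBOP at both times, and 4 of these 5 had a mean below 1 RPKM after PCN. After PCN, 0 of the 251 were at least 4-fold higher at both times. The shares of the 2270 past 4-fold were not counted, so nothing is read from these counts. The nearest to the 2-fold limit were ncRNA_inter_chr8_6896 inside, with a smaller difference of 1.03, and ncRNA_inter_chr5_4509 outside, with 0.94. On the PCN side they were ncRNA_as_chr16_13512, with -1.10, and ncRNA_intra_chr5_4734, with -0.83.

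**Figure D1:**
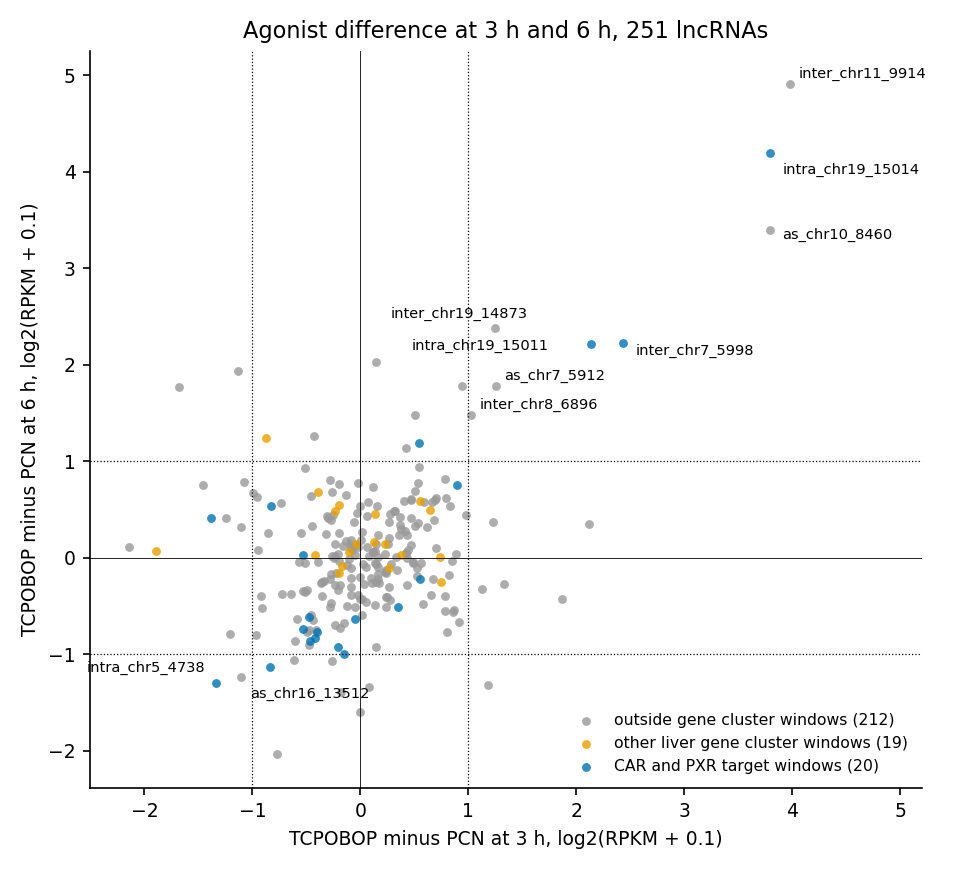
Each point is 1 of 251 lncRNAs, placed by its TCPOBOP minus PCN difference at 3 h (x axis) and 6 h (y axis) in log2(RPKM + 0.1), and coloured by whether it overlaps a gene cluster window. Dotted lines mark 2-fold. The 8 labelled lncRNAs at the upper right are past 2-fold after TCPOBOP at both times, the 2 at the lower left after PCN, and 210 lie within 2-fold at both.

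No test within a time was possible. An additive fit of agonist and time over the 4 libraries with limma, in which the difference between times is the only error term, called 0 of the 2270 lncRNAs (0%) at an adjusted p under 0.05. The lowest adjusted p was 0.591, and 162 had an unadjusted p under 0.05, 27 of the 251 among them. limma-voom on the reads recovered from the RPKM steps called 2 of 2270 (0.0881%), both among the 251 and higher after TCPOBOP: ncRNA_as_chr10_8460 and ncRNA_inter_chr11_9914. In a fit of all 12 libraries of the series limma called 396 (17.4%), 37 of the 251 among them. The only replicates there are the nuclear pools after TCPOBOP, so no spread came from the 4 libraries compared or from PCN. ncRNA_inter_chr19_14873, with 0 reads in those pools, had an SE of only 0.03 log2 units, and nothing is read from these calls. The counts below therefore rest on the size of the difference at both times, and the intervals printed beside ratios are exact 95% binomial intervals that cover counting error only.

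The lncRNA at Cyp2b10 was higher after TCPOBOP. ncRNA_inter_chr7_5998 (chromosome 7 26670803-26677472, minus strand, mm9) was the only one of the 251 that overlapped the Cyp2b10 window. Cyp2b10 encodes a cytochrome P450 that CAR agonists induce strongly. This lncRNA had 1.60 RPKM after TCPOBOP at 3 h, 2.01 after TCPOBOP at 6 h, 0.216 after PCN at 3 h and 0.351 after PCN at 6 h, over 275, 374, 37 and 59 reads. Both TCPOBOP libraries were above both PCN libraries. Its PCN levels were below 1 RPKM, so it entered the 251 through its TCPOBOP libraries, and its direction is tied to that rule. The ratio of TCPOBOP to PCN was 7.43 (5.26 to 10.8) at 3 h and 5.73 (4.34 to 7.67) at 6 h.

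The same locus was read in the unstranded libraries of the series, all of 3 h, which differ in protocol. It had 6.81 RPKM in whole liver of males after TCPOBOP and 0.588 RPKM in nuclei of males after PCN. In nuclei after TCPOBOP it had 14.1 ± 1.06 RPKM in females (SD, n = 3 pools) and 11.8 ± 2.22 in males (SD, n = 3 pools). Each of the 7 unstranded TCPOBOP libraries was above the PCN library, but compartment or experiment differ between them and cannot be told apart from the agonist.

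All 4 lncRNAs in the Cyp2c window on chromosome 19 were higher after TCPOBOP at both times, and this held with library medians set equal and with quantile normalization. Over the 2270, 27.1% were higher after TCPOBOP at both times. Cyp2c genes encode P450 enzymes that oxidise drugs and arachidonic acid. Summed over the 4, the level was 12.5 RPKM after TCPOBOP and 4.06 after PCN at 3 h, and 8.84 and 2.52 RPKM at 6 h. The largest differences were in a pair of overlapping intragenic lncRNAs on the plus strand. Both of the pair were below 1 RPKM after PCN and entered through their TCPOBOP libraries. The count of 4 therefore leans on the rule, under each scaling.

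Of this pair, ncRNA_intra_chr19_15014 (chromosome 19 40083334-40185159, 374 bases counted) had 4.16 and 1.73 RPKM after TCPOBOP at 3 h and 6 h and 0.208 and 0 after PCN. The reads behind these were 40, 18, 2 and 0. The ratio at 3 h was 20 (5.19 to 171). At 6 h it was 5.42 against a floor of 3 reads in the PCN library, and the exact interval began at 3.97. ncRNA_intra_chr19_15011 (chromosome 19 40074047-40170291, 424 bases counted) had 2.75 and 2.54 RPKM after TCPOBOP and 0.550 and 0.469 after PCN, over 30, 30, 6 and 5 reads. Its ratios were 5.0 (2.05 to 14.7) and 5.42 (2.08 to 17.9). Both intervals are wide because few reads lie behind them, and the pair shares most of its span. In the unstranded libraries both gave 0 reads in nuclei after PCN. After TCPOBOP ncRNA_intra_chr19_15011 had 0.293 RPKM in whole liver and means of 1.10 in female and 0.427 in male nuclei. Of these, whole liver and male nuclei were below its stranded PCN levels. The same values for ncRNA_intra_chr19_15014 were 0.730, 1.92 and 2.16 RPKM, above its stranded PCN levels.

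The other 2 lncRNAs of the window differed less. ncRNA_inter_chr19_15004 (39360460-39361422, plus strand), the highest of the 4 by its mean, had 2.46 and 3.69 RPKM after TCPOBOP and 1.66 and 1.57 after PCN. ncRNA_intra_chr19_15006 (39723892-39965167, minus strand) had 3.14 and 0.877 RPKM after TCPOBOP and 1.65 and 0.480 after PCN, so that it was lower at 6 h with either agonist and 0.89 and 0.75 log2 units apart between agonists.

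Both lncRNAs in the Cyp3a window on chromosome 5 were higher after PCN at both times under the same scalings. Over the 2270, 23.8% were higher after PCN at both times. The lncRNAs of this window overlap, so they are not separate measurements of it. Cyp3a genes encode P450 enzymes of drug and steroid oxidation, and Cyp3a11 is the usual PXR target in mice. ncRNA_intra_chr5_4738 (146389075-146670818, minus strand, 354 of 281744 bases counted) had 48.7 and 39.6 RPKM after TCPOBOP at 3 h and 6 h and 124 and 97.2 after PCN. Its reads were 443, 390, 1124 and 866. The 2 PCN libraries were above the 2 TCPOBOP libraries, and the ratio of PCN to TCPOBOP was 2.54 (2.27 to 2.84) at 3 h and 2.46 (2.18 to 2.78) at 6 h. With quantile normalization its smaller difference went from -1.29 to -0.81, under 2-fold.

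The overlapping ncRNA_intra_chr5_4734 (146384760-146669283, minus strand, 3253 bases counted) had 3.23 and 2.27 RPKM after TCPOBOP and 5.84 and 5.09 after PCN. It was past 2-fold at 6 h (-1.13) and not at 3 h (-0.83). With library medians set equal its smaller difference was -1.05, past 2-fold at both times. In the unstranded libraries ncRNA_intra_chr5_4738 had 141 RPKM in whole liver after TCPOBOP and 480 in nuclei after PCN, with 235 ± 16.6 RPKM in nuclei of females (SD, n = 3 pools) and 233 ± 51.4 in nuclei of males (SD, n = 3 pools) after TCPOBOP. Cyp3a genes are near-identical to one another in long stretches, so the split of reads between them and a lncRNA within them is uncertain.

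In the Ces1 window on chromosome 8, 7 of 11 intragenic lncRNAs were higher after PCN at both times and 0 were higher after TCPOBOP at both. Over the 2270, 23.8% were higher after PCN and 27.1% after TCPOBOP at both times. With library medians set equal the count higher after PCN was 8 of 11 and with quantile normalization 6. Ces1 genes encode carboxylesterases that hydrolyse ester drugs and lipids. The sum was 95.8 RPKM after TCPOBOP and 122 after PCN at 3 h, and 79.3 and 126 RPKM at 6 h. No lncRNA of the 11 was past 2-fold at both times, and the median difference was -0.46 at 3 h and -0.63 at 6 h.

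The highest of them, ncRNA_intra_chr8_7314 (95632747-95665835, 192 bases counted), had 15.6 and 13.5 RPKM after TCPOBOP and 21.7 and 20.7 after PCN, over 77, 72, 107 and 100 reads. ncRNA_intra_chr8_7322 (95634042-95667133) was among the 12 highest after PCN, with 13.4 and 11.3 RPKM after TCPOBOP and 19.5 and 18.8 after PCN. The 11 overlap one another and gave 4 to 128 reads per library, so they are not 11 separate measurements of the window.

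The remaining CAR and PXR target windows held few of the 251. Of 13 windows 5 held any, and the other 8, among them Ces2, Sult2a, Ugt1a, Gstm and Cyp1a, held none. At Alas1, the rate-limiting enzyme of haem synthesis, ncRNA_inter_chr9_8302 (106170469-106172002, minus strand) had 1.15 and 0.856 RPKM after TCPOBOP and 0.883 and 1.26 after PCN, so its direction was not shared by both times. The overlapping ncRNA_inter_chr9_8301 (106165907-106179897, plus strand) had 0.572 and 0.956 RPKM after TCPOBOP and 0.789 and 1.70 after PCN. Over all 20 lncRNAs in these windows, 5 were higher after TCPOBOP at both times and 10 after PCN, with 3 and 1 past 2-fold, against the 27.1%, 23.8%, 1.94% and 1.54% of the 2270. The 3 past 2-fold after TCPOBOP, at Cyp2b10 and Cyp2c, were below 1 RPKM in both PCN libraries. They entered through their TCPOBOP libraries, so nothing is read from their count. The 5 higher after TCPOBOP include these 3. The overlapping Ces1 lncRNAs are 11 of the 20 and 7 of the 10. The median difference of the 20 was -0.31 at 3 h and -0.56 at 6 h, against 0.06 and 0.00 over the 2270, and it turned to 0.55 and 0.75 over the 9 outside the Ces1 window, of which 5 were higher after TCPOBOP and 3 after PCN at both times.

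**Figure D2:**
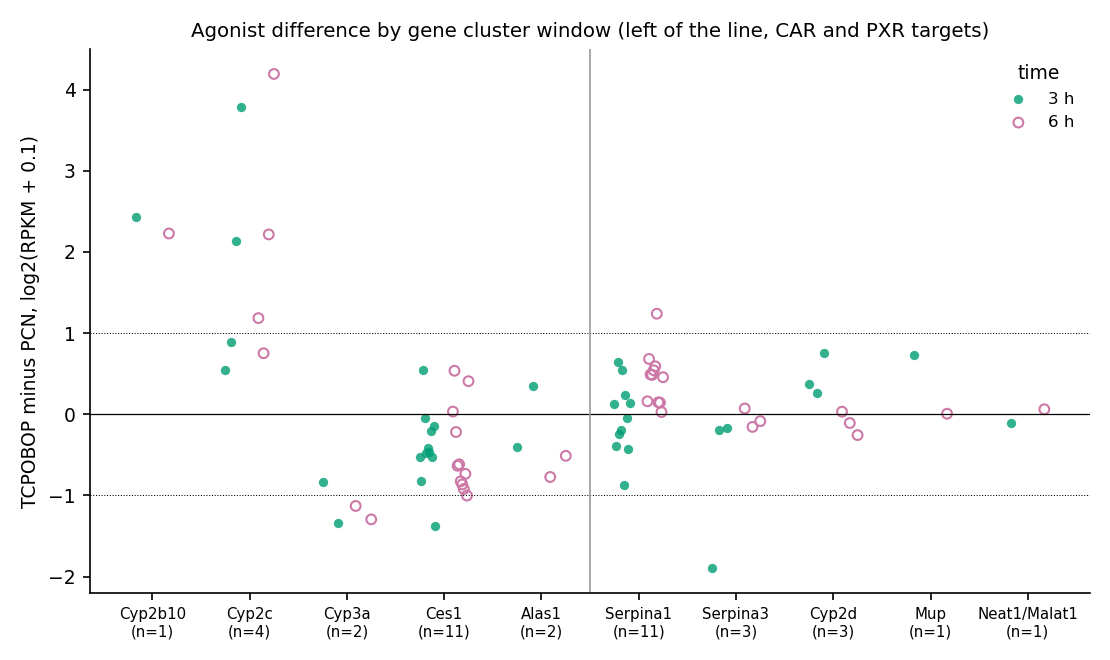
TCPOBOP minus PCN in log2(RPKM + 0.1) for each lncRNA that overlaps a gene cluster window, with filled points for 3 h and open points for 6 h, and dotted lines at 2-fold. Points of Cyp2b10 and Cyp2c lie above 0 and those of Cyp3a below it at both times, while the 11 of Ces1 run from -1.38 to 0.55 at 3 h.

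Of the 10 lncRNAs past 2-fold at both times, 6 lay outside all windows. ncRNA_as_chr10_8460 (chromosome 10 7498997-7502517, plus strand), an antisense lncRNA, was the most abundant of those higher after TCPOBOP. It had 17.1 and 22.8 RPKM after TCPOBOP at 3 h and 6 h and 1.14 and 2.08 after PCN. The ratio was 15 (12.3 to 18.5) at 3 h and 11.0 (9.43 to 12.8) at 6 h, and the fitted log2 difference over both times was 3.59 (SE 0.20). Its adjusted p was 0.591 in the additive limma fit and 0.0202 in limma-voom, and from 7.88e-23 to 0.714 over all fits. In the unstranded libraries it had 7.19 RPKM in whole liver and 12.8 ± 2.35 in male nuclei (SD, n = 3 pools) after TCPOBOP, and 0.945 in nuclei after PCN.

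**Figure D3:**
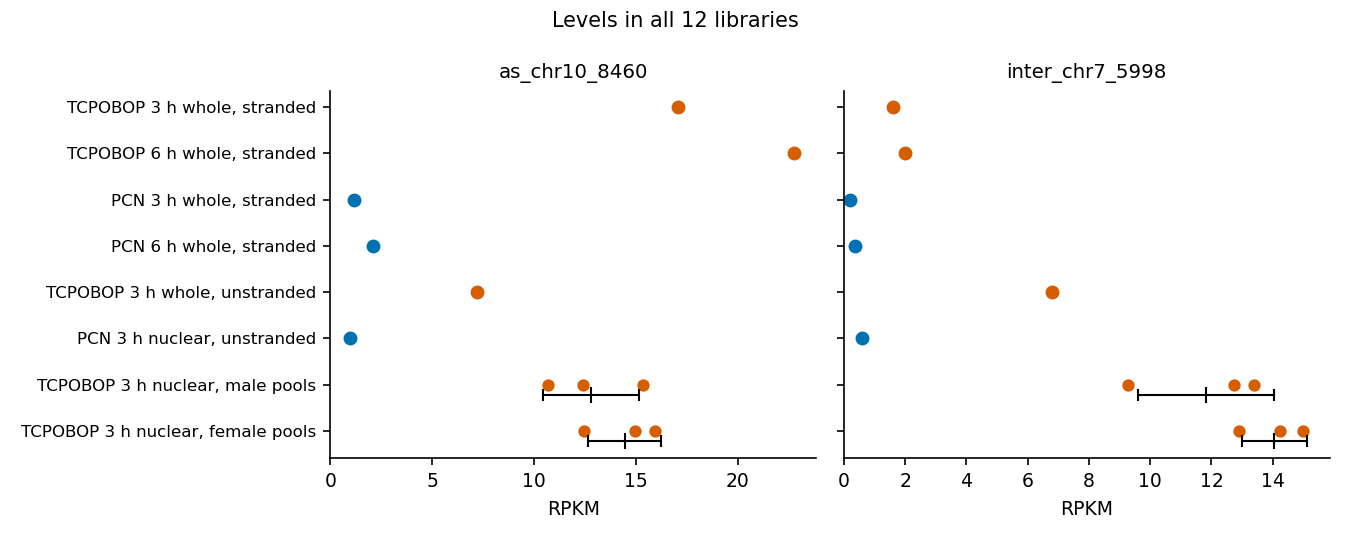
RPKM of ncRNA_as_chr10_8460 (left) and ncRNA_inter_chr7_5998 (right) in each of the 12 libraries, 1 point per library, with a black bar for mean and SD of the 3 nuclear pools of each sex. Libraries after PCN (blue) are at 2.08 RPKM or less on the left and 0.588 or less on the right, below every library after TCPOBOP (orange).

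ncRNA_inter_chr11_9914 (chromosome 11 79804087-79805822, plus strand) was read after TCPOBOP alone among the 4 libraries. It had 1.48 RPKM (66 reads) at 3 h and 2.90 RPKM (140 reads) at 6 h after TCPOBOP, and 0 reads after PCN at either time. Against a floor of 3 reads per PCN library it was 22-fold higher at 3 h and 42.2-fold higher at 6 h. The exact intervals began lower, at 17.4 and 33.85. Other TCPOBOP libraries did not share this: the unstranded whole-liver library gave 0 reads and the 6 nuclear pools from 0 to 2.28 RPKM, with the highest value in 1 female pool. The level therefore varied between pools given the same agonist.

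The 3 other lncRNAs higher after TCPOBOP at both times were also lower at 6 h than at 3 h with each agonist. ncRNA_inter_chr19_14873 (chromosome 19 23135639-23148147, plus strand) had 4.26 and 2.49 RPKM after TCPOBOP and 1.74 and 0.399 after PCN, ratios of 2.45 (2.22 to 2.71) and 6.26 (5.18 to 7.63). ncRNA_as_chr7_5912 (chromosome 7 13591691-13592354, plus strand) had 3.22 and 1.68 RPKM after TCPOBOP and 1.29 and 0.419 after PCN, ratios of 2.50 (1.5 to 4.31) and 4.0 (1.73 to 10.8). ncRNA_inter_chr8_6896 (chromosome 8 36467573-36478552, minus strand) had 6.26 and 0.700 RPKM after TCPOBOP and 3.02 and 0.187 after PCN, ratios of 2.07 (1.90 to 2.26) and 3.75 (2.72 to 5.25). For ncRNA_inter_chr8_6896 the TCPOBOP library at 6 h was below the PCN library at 3 h, so the groups overlap across times. The first 2 of these 3 gave 0 reads in all 8 unstranded libraries, as did 42 of the 251.

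Outside the Cyp3a window, the lncRNA past 2-fold after PCN was ncRNA_as_chr16_13512 (chromosome 16 93788097-93795122, minus strand). It had 0.739 and 1.82 RPKM after TCPOBOP and 1.70 and 4.4 after PCN, over 113, 301, 260 and 659 reads. The ratio of PCN to TCPOBOP was 2.30 at 3 h and 2.42 at 6 h, and it was higher at 6 h with each agonist. The TCPOBOP library at 6 h was slightly above the PCN library at 3 h, so the groups overlap across times. The unstranded libraries, which differ in protocol, did not show the difference. There ncRNA_as_chr16_13512 had 2.74 RPKM in nuclei after PCN. After TCPOBOP it had 3.23 RPKM in whole liver and means of 2.60 in female and 2.47 in male nuclei, and the PCN value lay within the range of those nuclear pools.

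**Figure D4:**
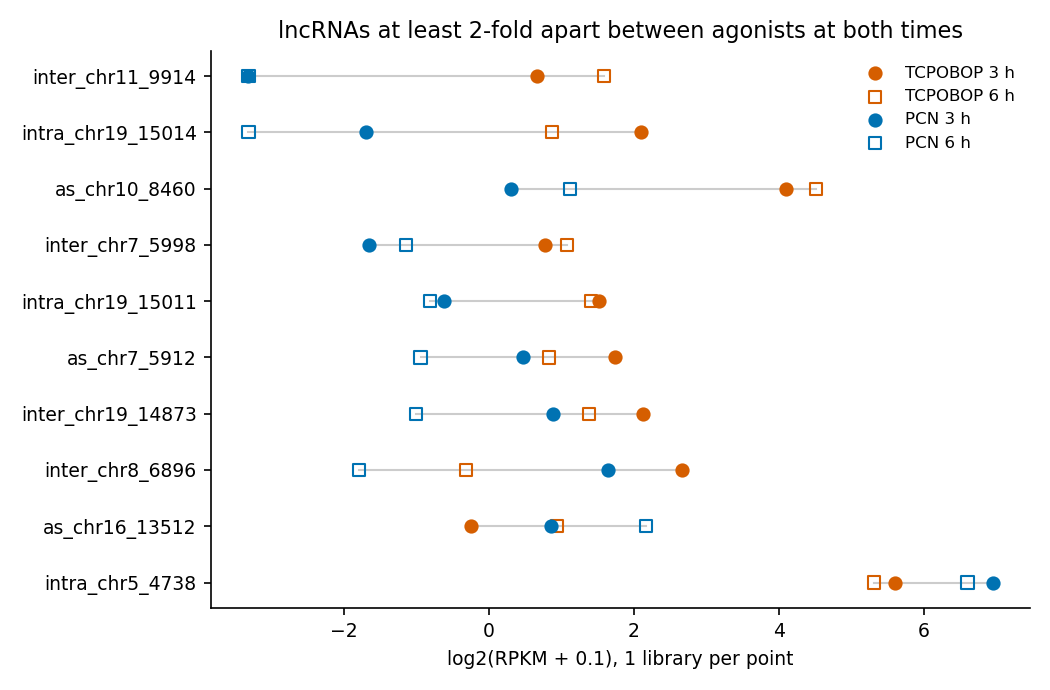
Levels in log2(RPKM + 0.1), 1 point per library, of the 10 lncRNAs at least 2-fold apart between agonists at both times. TCPOBOP points (orange) lie to the right of PCN points (blue) of the same time, filled for 3 h and open for 6 h, in the upper 8 lncRNAs and to the left in the lowest 2.

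Next in order after TCPOBOP were 4 lncRNAs under 2-fold at 1 time or more. ncRNA_inter_chr5_4509 had 2.23 and 1.55 RPKM after TCPOBOP and 1.12 and 0.380 after PCN, over 12, 9, 6 and 2 reads. ncRNA_inter_chr1_1029 had 2.17 and 2.75 against 1.22 and 1.52 RPKM. ncRNA_as_chr2_1543, with 223 to 483 reads per library, had 2.12 and 1.59 RPKM after TCPOBOP and 1.18 and 1.00 after PCN. The other was ncRNA_intra_chr19_15006 of the Cyp2c window.

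With PCN the next in order included ncRNA_as_chr18_14627, with 0.455 and 2.02 RPKM after TCPOBOP and 0.981 and 3.61 after PCN. ncRNA_inter_chr1_931 had 0.719 and 0.730 RPKM after TCPOBOP and 1.29 and 3.31 after PCN, a difference of -0.77 at 3 h and -2.04 at 6 h. ncRNA_inter_chr16_13349 had 0.631 and 1.16 against 1.02 and 2.53 RPKM, and ncRNA_as_chr19_14777 had 2.29 and 2.30 against 3.54 and 4.25 RPKM. The rest of the 12 highest after PCN, ncRNA_inter_chr14_12182, ncRNA_inter_chr1_941, ncRNA_inter_chr16_13228 and ncRNA_inter_chr7_6630, had smaller differences of -0.79, -0.59, -0.52 and -0.49.

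Windows of other liver genes, which are not CAR or PXR targets by their usual description, held 19 of the 251 in 5 of 8 windows. Of the 19, 7 were higher after TCPOBOP and 2 after PCN at both times, against 27.1% and 23.8% of the 2270, and 0 were past 2-fold at both. The most abundant lncRNA of all, ncRNA_intra_chr12_10888 in the window of Serpina3 (acute-phase protease inhibitors), had 720 and 630 RPKM after TCPOBOP and 812 and 668 after PCN. In the Serpina1 window (alpha-1 antitrypsin), ncRNA_intra_chr12_10851 had 187 and 137 RPKM after TCPOBOP and 171 and 123 after PCN. All 11 lncRNAs there were higher after TCPOBOP at 6 h (10 with library medians set equal and 9 with quantile normalization) and 5 were at 3 h. Over the 2270 the shares were 49.1% at 6 h and 52.4% at 3 h. Each of the 11 overlaps another, so they are not 11 separate measurements.

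The level of ncRNA_inter_chr19_14746, which overlaps the Neat1/Malat1 window of abundant nuclear lncRNAs, was 15.2 and 13.0 RPKM after TCPOBOP and 16.4 and 12.5 after PCN, over 6711 to 9029 reads. At the major urinary protein genes (Mup), ncRNA_as_chr4_3298 had 4.06 and 2.22 RPKM after TCPOBOP and 2.40 and 2.20 after PCN. At the Cyp2d genes, ncRNA_inter_chr15_12778 had 8.30 and 9.11 against 6.88 and 9.82 RPKM. The 3 loci were within 2-fold at both times.

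The difference between agonists was not the same at 3 h and 6 h for every lncRNA. With 1 library per agonist and time, whether it depends on time was not tested. Across the 251 lncRNAs the differences at 3 h and 6 h had a Pearson correlation of 0.473, given as a description, since lncRNAs of 1 library share its depth and 35 overlap. Lower after TCPOBOP relative to PCN at 6 h than at 3 h was ncRNA_as_chr18_14602 (chromosome 18 65373674-65380730, minus strand). At 3 h it had 8.24 RPKM after TCPOBOP and 3.57 RPKM after PCN, over 800 and 347 reads. At 6 h it had 1.08 and 2.85 RPKM, over 114 and 271 reads. Its difference went from 1.18 to -1.32, past 2-fold each way.

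In the opposite order were the neighbours ncRNA_inter_chr2_1425 and ncRNA_inter_chr2_1426 (chromosome 2 67862230-67862950 and 67869460-67872438, plus strand). The first had 0.486 RPKM after TCPOBOP and 1.19 after PCN at 3 h, and 2.39 and 0.551 at 6 h. The second had 0.431 RPKM after TCPOBOP and 1.36 after PCN at 3 h, then 2.07 and 1.19 RPKM at 6 h, over 33, 104, 172 and 89 reads. For both the TCPOBOP library at 3 h was the lowest and that at 6 h the highest of the 4.

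Of the 251, 10 were at least 1.5-fold apart in opposite directions at the 2 times and 3 at least 2-fold. The other large differences between times rest on few reads or on 1 library. ncRNA_inter_chr16_13356 gave 3 to 13 reads, ncRNA_inter_chr3_2639 3 to 32, ncRNA_intra_chr19_14773 5 to 28, ncRNA_inter_chr3_2290 4 to 11 and ncRNA_inter_chr5_4081 1 to 3. ncRNA_intra_chr12_10883 in the Serpina3 window had 20.8 RPKM (63 reads) after TCPOBOP at 3 h and 72.4 to 77.5 RPKM in the other 3 libraries.

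**Figure D5:**
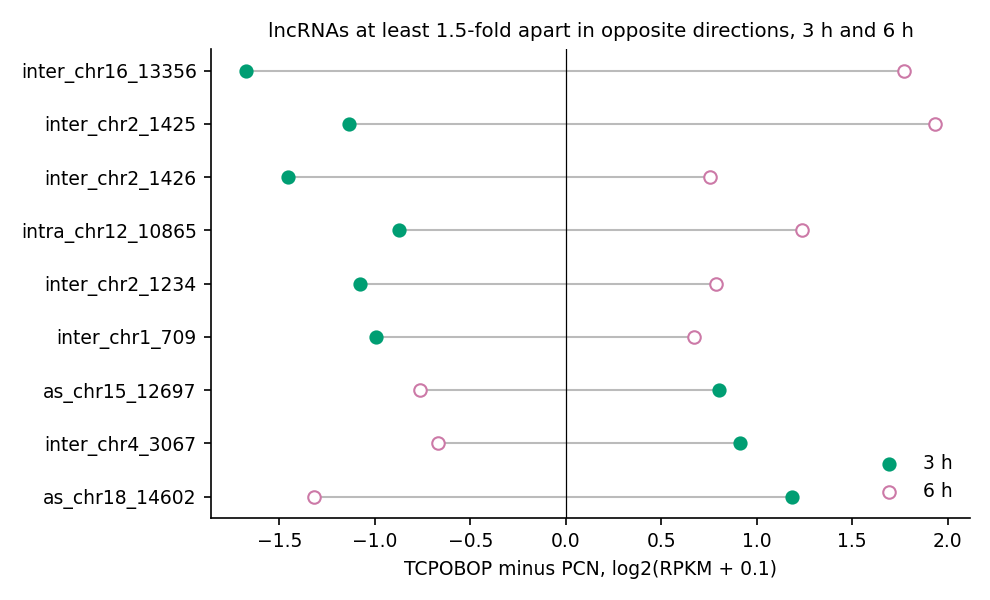
TCPOBOP minus PCN in log2(RPKM + 0.1) at 3 h (filled) and 6 h (open) for 9 of the 10 lncRNAs at least 1.5-fold apart in opposite directions. In 6 of the 9 the 3 h value is negative and the 6 h value positive, and in 3 the order is the other way.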

How the data were processed

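Poly-A selected RNA of mouse liver was sequenced, 1 library per agonist and time in the comparison. The authors deposited RPKM values for 15558 lncRNAs, per the file headers. Reads were aligned with TopHat2 to mm9, per the submitters' processing notes. For the aligner's version, the counting tool and its strand setting, information is not given in the sources used here. Of 25 value columns, 12 matched a library's labels, 4 of them the libraries compared, and 13 were not used here. Values stepped in whole reads: 100% of 89242 values above 0 were whole within 1e-06 of a read, which gave library totals, counted lengths and reads.

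lncRNAs with at least 0.1 RPKM in 2 of the 4 libraries (2270) were fitted as log2(RPKM + 0.1) with agonist and time as terms and 1 residual degree of freedom (limma 3.58.1, R 4.3.3, trended prior, Benjamini-Hochberg adjustment). A permutation test of 2 libraries against 2 cannot go below an exact p of 0.333. Within a time, log2 differences and ratios of reads with exact (Clopper-Pearson) 95% intervals from scipy 1.17.1 are given, and 2-fold in the same direction at both times is the limit used. There were no molecular identifiers, so reads may share a molecule. Intervals cover counting error only, and floors cover that of the PCN reads alone. The scripts were tested on simulated data.

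Named lncRNAs are the 12 highest with each agonist by the smaller of the differences at 3 h and 6 h, all past 2-fold at both, the 5 largest differences between times each way, and the highest by mean RPKM in each gene cluster window; a few others were chosen after their values were seen. A few lncRNAs that the rule names are not reported here. The 21 windows (13 CAR and PXR, 8 other liver genes) are approximate mm9 positions from general knowledge and not from the files. The supplied reference is of another build, so no coordinates were converted and no lncRNA sequence is printed. The 251 lncRNAs and the lists were chosen with earlier results of these data known. Alternatives tried were other pseudocounts, filters, scalings, fold limits, levels, limma-voom, no time term, and a fit of all 12 libraries with spread from the replicate nuclear pools.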

Additional observations from a re-analysis of the deposited data

Results flagged for a closer look

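For 9 lncRNAs described here the agonist difference pointed in opposite directions at 3 h and 6 h, by at least 1.5-fold each way. With 1 library per agonist and time this difference was not tested. Given as the TCPOBOP minus PCN difference at 6 h less that at 3 h, on the log2(RPKM + 0.1) scale, it was 3.45 for ncRNA_inter_chr16_13356, 3.07 for ncRNA_inter_chr2_1425, 2.21 for ncRNA_inter_chr2_1426, 2.11 for ncRNA_intra_chr12_10865, 1.87 for ncRNA_inter_chr2_1234 and 1.66 for ncRNA_inter_chr1_709. The other way it was -2.5 for ncRNA_as_chr18_14602, -1.58 for ncRNA_inter_chr4_3067 and -1.57 for ncRNA_as_chr15_12697. ncRNA_inter_chr2_1425 and ncRNA_inter_chr2_1426 are neighbours on the same strand, and whether they are 1 transcript was not tested. ncRNA_as_chr18_14602 has the most reads of the 9, 114 to 800 per library, and ncRNA_inter_chr16_13356 the fewest, 3 to 13.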

How the results depend on the processing

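No paired analysis was possible because each agonist and time is 1 library whose labels give no replicate number to block on; the time term already sets the agonists against each other within a time. For the same reason no replicate could be left out. limma called 0 lncRNAs with either agonist, and still 0 with pseudocounts of 0.01 and 1, no filter, equal medians, quantile normalization and no time term. It called 10 (TCPOBOP) and 7 (PCN), 17 of the 251, with a mean of at least 1 RPKM in the fit. The spread there came wholly from the trend with level (infinite prior degrees of freedom). In limma-voom it called 2, both TCPOBOP and both among the 251. In the fit of 12 libraries, with spread from the nuclear pools after TCPOBOP alone, it called 226 and 170, 37 of the 251. The 8 and 2 lncRNAs past 2-fold at both times became 5 and 1 with pseudocount 1, 14 and 9 at 1.5-fold, 5 and 0 at 4-fold, 14 and 12 at 3 h alone and 17 and 11 at 6 h alone. The PCN count was 1 with quantile normalization and 4 from a mean of 0.5 RPKM, and the TCPOBOP count 3 from a mean of 2 RPKM. With equal medians the counts were 7 (TCPOBOP) and 3 (PCN), and ncRNA_intra_chr5_4734 joined the PCN side with a smaller difference of -1.05. Equal medians lower every difference by 0.22 at 3 h and 0.09 at 6 h. The median difference then went from 0.03 to -0.19 at 3 h and from 0.02 to -0.064 at 6 h, and with quantile normalization to -0.0375 and 0.0; the cause was not tested. The share of the 251 higher with TCPOBOP was 51.8% at 3 h and 52.6% at 6 h, and under equal medians 37.8% and 43%, or 43.4% and 47% after quantile normalization. Of the 10 past 2-fold, 9 remained with equal medians (without ncRNA_inter_chr8_6896), 8 with quantile normalization (also without ncRNA_intra_chr5_4738) and 6 with pseudocount 1 (without ncRNA_inter_chr8_6896, ncRNA_inter_chr19_14873, ncRNA_as_chr7_5912 and ncRNA_as_chr16_13512).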
